A study of Mus musculus with 6 samples.

Results

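The RNA modification N6-methyladenosine (m6A) was profiled by m6A-seq, in which RNA captured with an antibody is sequenced, in mouse male germ cells labelled as spermatocytes, taken at postnatal day 35. The groups were ClpP cKO, ClpX cKO and WT, each with 1 immunoprecipitated (IP) library of captured RNA and 1 input library. Both knockouts were restricted to male germ cells with Stra8-Cre, a recombinase driven by a promoter that is active in spermatogonia entering meiosis, and ClpP and ClpX are the protease and unfoldase subunits of a mitochondrial matrix protease. The labels do not say whether WT animals carried floxed alleles or the Cre, nor how many animals went into a library. The genes described here are those with 6 or more listed peaks in a comparison of a knockout with WT, so they were selected on the number of peaks the authors called. They were 241 of 13334 genes (1.81%), with 1672 of 24127 peaks (6.93%), in the ClpP table, and 231 of 13085 genes (1.77%), with 1635 of 23681 peaks (6.90%), in the ClpX table. Coordinates are on GRCm38 (mm10).

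m6A is placed on nascent RNA by a writer complex built around METTL3 and METTL14, mostly at adenosines within a short consensus that contains GGAC in its commonest form. Reader proteins recognise it and alter splicing, export, translation or decay of the transcript, and in the male germ line the pathway is required for spermatogonial differentiation and meiosis. Long internal exons and the region around the stop codon are where mammalian mRNAs carry most of it, so a transcript with a long exon can carry many separate peaks.

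Every value of a peak below is the authors' own, from their deposited tables. The fold enrichment is a linear ratio of IP over input given once per peak for all 4 libraries of a comparison, and the log2 fold change is the difference of enrichment between knockout and WT. Positive values are read as higher in the knockout, on the sole ground that the knockout stands before WT in the name of each table. A peak is said to be called, or to have risen or fallen, where the authors' adjusted p was under 0.05. With 1 library per group there is no replicate error, and a call compares these libraries only. Depth is unknown, and both comparisons share the same WT libraries. Clpx had 1 peak in the ClpP table and 1 in the ClpX table, Clpp had 0 and 1, and no peak of either gene was called, so enrichment does not check the genotype labels. Of the spermatocyte markers looked for, 8 of 8 carried a peak in the ClpP table and 6 of 8 in the ClpX table, while markers of Sertoli cells did so for 7 of 8 in each. Spermatid markers did so for 7 of 8 and 8 of 8, and spermatogonial markers for 6 of 6 in each. Markers of Leydig and other somatic cells did so for 4 of 10 and 7 of 10. Carrying a peak therefore does not set spermatocytes apart from other cells of the testis.

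The tables list some sites more than once. In each, the rows start over at chromosome 1 after the scaffolds, and this second run held 540 rows in the ClpP table and 550 in the ClpX table. Rows of the second run belonged to 27 genes with 6 or more rows in the ClpP table and 24 in the ClpX table. Rows that share bases with another row of the same gene were found in 27 and 26 of these genes, and some of them carry a second Ensembl identifier. Counting such rows once left 219 of the 241 genes and 210 of the 231 with at least 6 separate sites. Rows that share bases with a row of another gene were not merged by this step. They numbered 36 in 11 ClpP genes and 47 in 16 ClpX genes, so some sites still count under more than 1 gene. The results that follow count rows as listed. The value with shared rows counted once is given for the shares called, the median ranges, the variance between genes, the genes with opposed calls and the ratio of enrichment.

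A few peaks of these genes reach a gene start, where the sequence can be shown. Such a peak overlapped the window from 250 bases before to 50 bases after an annotated start for 37 genes (43 peaks) in the ClpP table, with 0 called higher and 9 (20.9%) called lower, against 6.74% and 12.8% of all peaks of the table. It did so for 42 genes (50 peaks) in the ClpX table, with 6 (12%) higher and 1 (2%) lower, against 15.1% and 5% of all peaks. These shares rest on few peaks, and values with shared rows counted once are not given for them. The windows below, from RefSeq (GRCm38.p6), were chosen after their values were seen, because they hold a called peak next to uncalled or oppositely changed peaks of the same gene. They are printed 5′ to 3′ on the gene's strand, and capitals mark the bases inside the called peak.
Fbxl12, chr9:20644718-20645017, minus strand: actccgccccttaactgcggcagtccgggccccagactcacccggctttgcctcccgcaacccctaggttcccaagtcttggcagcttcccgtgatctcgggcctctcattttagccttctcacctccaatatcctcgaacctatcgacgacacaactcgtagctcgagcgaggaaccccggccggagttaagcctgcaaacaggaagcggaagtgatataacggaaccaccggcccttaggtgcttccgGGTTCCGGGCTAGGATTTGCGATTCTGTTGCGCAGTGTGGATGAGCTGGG
Tsc22d1, upstream start, chr14:76415571-76415870, plus strand: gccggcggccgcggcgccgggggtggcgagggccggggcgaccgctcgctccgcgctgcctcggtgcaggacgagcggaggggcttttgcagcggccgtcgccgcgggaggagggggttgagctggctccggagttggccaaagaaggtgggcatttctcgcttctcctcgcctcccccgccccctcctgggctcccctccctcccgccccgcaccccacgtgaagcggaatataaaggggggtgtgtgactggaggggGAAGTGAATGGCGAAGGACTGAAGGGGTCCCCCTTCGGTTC
Tsc22d1, downstream start, chr14:76504260-76504559, plus strand: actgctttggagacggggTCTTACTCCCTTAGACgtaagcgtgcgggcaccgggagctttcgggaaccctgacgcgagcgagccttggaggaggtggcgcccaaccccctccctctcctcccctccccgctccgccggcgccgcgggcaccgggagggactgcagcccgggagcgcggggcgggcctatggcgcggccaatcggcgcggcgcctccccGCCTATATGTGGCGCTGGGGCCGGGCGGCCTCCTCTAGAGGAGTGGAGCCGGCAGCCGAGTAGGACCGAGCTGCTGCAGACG
Fat1, chr8:44949958-44950257, plus strand: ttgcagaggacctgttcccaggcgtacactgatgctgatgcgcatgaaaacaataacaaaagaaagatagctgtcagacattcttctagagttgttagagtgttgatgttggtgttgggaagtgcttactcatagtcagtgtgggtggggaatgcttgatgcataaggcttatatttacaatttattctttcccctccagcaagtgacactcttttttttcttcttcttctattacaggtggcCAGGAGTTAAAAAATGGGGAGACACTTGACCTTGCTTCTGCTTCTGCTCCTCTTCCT
Srrm2, chr17:23802975-23803274, plus strand: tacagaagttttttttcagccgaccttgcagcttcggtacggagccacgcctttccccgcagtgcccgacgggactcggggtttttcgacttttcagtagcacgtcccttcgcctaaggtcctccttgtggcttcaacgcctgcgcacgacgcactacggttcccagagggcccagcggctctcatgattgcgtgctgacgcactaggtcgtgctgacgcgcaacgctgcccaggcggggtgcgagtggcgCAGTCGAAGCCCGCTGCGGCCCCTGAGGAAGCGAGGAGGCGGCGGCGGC

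Fbxl12 encodes the substrate-binding F-box subunit of a ubiquitin ligase, and the peak at the start shown above stood apart from the other 5 of the gene. Its log2 fold change in ClpP cKO was -4.74 in the authors' deposited table (adjusted p 0.000219, fold enrichment 4.44). The other 5 peaks lay between -0.903 and 0.227 in that comparison, with none called. In ClpX cKO 1 of 6 peaks of the gene was called, lower at -3.58 in the authors' deposited table. It was peak 3 from the 5′ end and not the start peak. Tsc22d1, a leucine-zipper transcriptional regulator, has alternative starts, and called peaks lay at a different one in each comparison. In ClpX cKO the peak at the upstream start was at 1.2 (adjusted p 1.58e-16) and the peak at the 3′ end of the gene at -0.289 (adjusted p 0.000148) in the authors' deposited table. In ClpP cKO the peak at the downstream start was at -1.42 (adjusted p 0.0234) and that at the 3′ end at -0.733 (adjusted p 3.98e-46) in the authors' deposited table. Fat1 encodes a giant protocadherin. Its start peak fell in both comparisons, at -1 in ClpP cKO and -0.416 in ClpX cKO in the authors' deposited tables. So did other peaks of the gene, with 4 of 7 called lower in ClpP cKO and 4 of 9 in ClpX cKO. All 7 lay below 0 in ClpP cKO, and -0.416 was also the median of the gene's peaks in ClpX cKO. Srrm2, a scaffold of nuclear speckles, had 5 of 7 peaks called higher in ClpX cKO, the one at its start at 2.03 (adjusted p 3.98e-19) in the authors' deposited table. GGAC lay in the peak part of 4 of the 12 different windows with a called peak, and in the 50 bases after the start of 18.9% of all 32851 windows off chromosome 18, searched on the gene's strand. Those peak parts differ in length from 50 bases, and a match of these letters is a description, not a methylated site.

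Genes with many peaks were long. Their median span was 81015 bases in the ClpP table, against 21689 bases for all genes matched to RefSeq, and 71025 bases in the ClpX table, against 20930 bases. The peaks were nevertheless spread over only part of it, with a median stretch from the outermost peak at one end to that at the other of 41881 bases (ClpP) and 36182 bases (ClpX). In 39 and 40 genes all peaks lay within 10000 bases. Most genes were near the minimum, with 135 and 133 genes at exactly 6 peaks and 47 and 56 at 8 or more, and the maximum was 20 peaks in each table. Genes with 6 or more peaks in both tables numbered 140, which is 58.1% of the ClpP genes and 60.6% of the ClpX genes. Of the 101 genes that reached 6 peaks only in the ClpP table, 52 had 5 in the ClpX table, and of the 91 that did so only in the ClpX table, 40 had 5 in the ClpP table. Membership therefore often turned on 1 listed peak.

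Peaks of these genes were called at a somewhat smaller share than all peaks of their table. In the ClpP comparison 288 of 1672 peaks (17.2%) were called, against 19.6% of all peaks in the table. Of them 137 (8.19%) were called higher in ClpP cKO, against 6.74% of all peaks, and 151 (9.03%) lower, against 12.8%. In the ClpX comparison 266 of 1635 peaks (16.3%) were called, against 20.1% of all peaks. Here 209 (12.8%) were called higher in ClpX cKO, against 15.1% of all peaks, and 57 (3.49%) lower, against 5%. With rows that share bases counted once, 8.70% rose and 8.77% fell in ClpP cKO, and 12.4% rose and 3.56% fell in ClpX cKO. The split of ClpX calls depends on where 0 is set. All peaks of the ClpX table had a median log2 fold change of 0.239, and subtracting it and calling anew gave 152 peaks higher and 162 lower (48.4% of calls higher, in place of 78.6%), against 11.1% and 13.6% of all peaks of the table. The ClpP median was -0.0339, and the same step gave 159 higher and 147 lower there (52.0% higher, in place of 47.6%). Over all peaks of the ClpP table it gave 7.98% higher and 12.0% lower.

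Peaks of one gene differed widely in their change. The distance between the highest and lowest log2 fold change within a gene had a median of 2.69 over the ClpP genes (order-statistic 95% interval 2.48 to 2.78) and 2.85 over the ClpX genes (2.67 to 3.20), and it exceeded 1 in 232 of 241 and 225 of 231 genes. These intervals are over genes and leave out measurement error. With shared rows counted once the medians were 2.69 and 2.96. Only 11.2% of the variance of log2 fold change among these peaks lay between genes in the ClpP table and 10.7% in the ClpX table (8.49% and 9.32% with shared rows counted once). The pooled standard deviation of peaks around their own gene's mean was 1.05 (ClpP) and 1.18 (ClpX), close to the 1.09 and 1.30 found over all peaks of each table regardless of gene. Genes with fewer peaks showed a like spread around their own mean, from 1.02 in genes with 2 peaks to 1.09 in genes with 5 in the ClpP table, and from 1.16 to 1.26 in the ClpX table. The share of variance between genes was 6.78% for genes with 2 peaks and 8.01% for genes with 5 in the ClpP table, and 16.5% and 6.26% in the ClpX table.

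Much of that spread moved with how well a peak was supported. An error can be read back from the log2 fold change and p-value the authors gave each difference, and over peaks of these genes it had a root mean square of 0.835 (ClpP) and 0.927 (ClpX). Among peaks with a peak p of 1e-10 or lower, 51.9% of the peaks in the ClpP table and 44.2% in the ClpX table, that error was 0.389 and 0.463. Around the gene's mean, the standard deviation of these well supported peaks was 0.765 in the ClpP table and 0.896 in the ClpX table. It covered 206 ClpP genes and 179 ClpX genes with at least 2 such peaks, with 845 and 693 peaks. The median range within a gene was 1.34 and 1.45. Fewer peaks per gene entered these ranges than the ranges over all peaks, and a range narrows with fewer values by construction. The ranges are therefore not to be read against each other. The share of variance between genes was 17.8% and 18%. The spread within genes thus stayed above the error read from the authors' p-values in the better supported peaks as well. Peak p is a measure of enrichment and of read number together, and the part of read number was not tested.

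**Figure D1:**
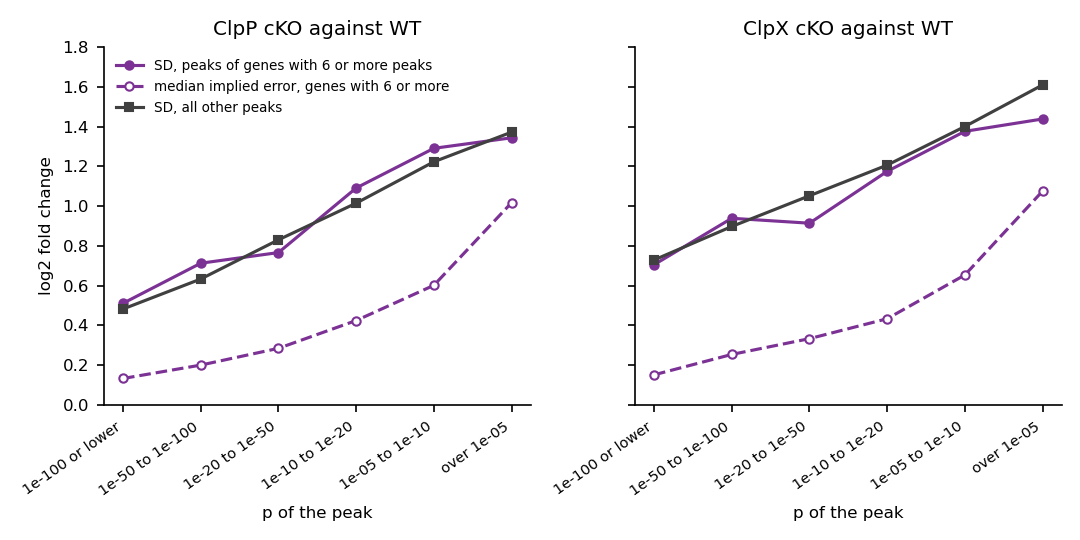
Standard deviation of the log2 fold change (y axis) by class of peak p (x axis, strongest support at left) for peaks of genes with 6 or more peaks (purple, filled), for all other peaks (grey squares), and the median error implied by the authors' p-values for the genes with 6 or more peaks (purple, open, dashed). In both comparisons the spread widens to the right, from 0.511 to 1.34 for the ClpP genes and from 0.705 to 1.44 for the ClpX genes, and stays above the median implied error. A median and a standard deviation are unlike measures, so the gap does not measure spread beyond error. Over all peaks of these genes the median error was 0.440 (ClpP) and 0.525 (ClpX), and its root mean square 0.835 and 0.927.

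Direction moved with support in ClpP cKO, and with enrichment in both comparisons. In ClpP cKO, peaks of these genes with a peak p of 1e-100 or lower had a median log2 fold change of -0.401, with 52.2% called lower, while those with a peak p over 1e-05 had a median of 0.333, with 0.233% called lower. All other peaks of the table did the same (-0.398, with 49.5% called lower, and 0.322, with 1.15%). In ClpX cKO the medians were not ordered by support. Peaks with a peak p of 1e-100 or lower had a median of 0.274, with 36.6% called higher and 19.4% lower, the next class had 0.0386, and those over 1e-05 had 0.531. Ranked by fold enrichment within their own gene, the lowest-ranked class of peaks had a median log2 fold change of 0.263, the middle class 0.107 and the highest class -0.00364 in ClpP cKO. The same classes had medians of 0.630, 0.322 and 0.0385 in ClpX cKO, where 16.2%, 14.2% and 7.90% of peaks were called higher. The more enriched peaks of a gene were therefore lower, relative to its weaker peaks, in both comparisons, which share their WT libraries. The fold enrichment comes from the same libraries as the change, so the measures are not independent.

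Some genes held peaks called in opposite directions. They numbered 35 of 241 in ClpP cKO (14.5%, exact binomial 95% interval 10.3 to 19.6%) and 18 of 231 in ClpX cKO (7.79%, 4.68 to 12.0%), and 16.0% and 8.57% with shared rows counted once. After the table median was subtracted the ClpX figure was 40 genes (17.3%). For comparison, 43 ClpP genes and 55 ClpX genes had at least 2 called peaks that all went one way. A gene with more peaks has more room for opposed calls. The share among genes with fewer peaks is not given, nor the share that calls scattered over peaks would give. The counts therefore do not show opposed calls to be particular to these genes. In 30 of the 35 ClpP genes and 15 of the 18 ClpX genes the most enriched called peak was one that fell. Their 49 peaks called higher in ClpP cKO had a median fold enrichment of 3.38 and a median log2 fold change of 1.17, and their 60 peaks called lower had 8.2 and -0.71. In ClpX cKO the 30 called higher had 5.61 and 1.18, and the 23 called lower 11.2 and -1.27. Called peaks of all genes with 6 or more peaks were ordered alike. Their median fold enrichment was 4.31 for those called higher and 7.9 for those called lower in ClpP cKO, and 5.05 and 12.9 in ClpX cKO. The stronger enrichment of peaks that fell is thus not particular to genes with opposed calls. A change of at least 1 in each direction was called in 12 ClpP genes and 9 ClpX genes.

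In ClpP cKO, Unc13b held the widest opposed pair. It encodes a Munc13 protein that primes vesicles for fusion, and its 13 peaks spanned 94872 bases of chromosome 4. A peak in the 5′ cluster (chr4:43176143-43177582) fell by 3.12 on the log2 scale, where fold enrichment was 39.8 and the adjusted p 0.000851 in the authors' deposited table. Its last 2 peaks, at the 3′ end, were called higher at 1.97 (adjusted p 0.000603) and 1.51 (adjusted p 0.00102) in the authors' deposited table. Its highest value, 4.32 in the authors' deposited table, lay on a weakly supported peak and was not called. Cep350, a centrosomal protein that anchors microtubules, had a run of changes along the gene instead: its 2 peaks nearest the 5′ end were called lower at -0.594 and -1.19, and 3 peaks further along were called higher at 2.05, 1.49 and 0.896 in the authors' deposited table. Smarca2, the ATPase of BAF chromatin remodellers, had -1.52 at an inner peak and 1.24 at its last peak in the authors' deposited table. The kinase gene Abl1 had called values of -0.992, -1.18 and 2.18, and Usp34, a deubiquitinase, 1.11, -1.11 and -0.734 in the authors' deposited table. Klhl24 and Vps13b each had 1 call each way, at -1.11 and 1.37 for Klhl24 and at 1.22 and -1.11 for Vps13b in the authors' deposited table.

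In ClpX cKO the widest opposed pair belonged to Hivep1, a zinc finger transcription factor. A peak in its middle (chr13:42159577-42159877) was at -3.64 (adjusted p 0.0339) and the peak just before it (chr13:42159067-42159337) at 1.95 (adjusted p 0.0398) in the authors' deposited table. Wdr33, a subunit of the mRNA 3′ end processing machinery, alternated, with called values of 1.19, -3.92, 0.753 and -1.27 from 5′ to 3′ in the authors' deposited table. Espl1, the separase that cleaves cohesin, had -2.11 at its most 5′ peak and 1.06 and 1.31 at later ones in the authors' deposited table. Ranbp2, a nucleoporin, ran the other way, with 0.982 at the most 5′ peak and -0.922, -0.774 and -1.72 further along in the authors' deposited table. Jmy, which promotes actin assembly, had 2.01 near its 5′ end and -1.54 at its last peak, and Vps13b 2.36 and -1.57, in the authors' deposited table. Ankrd11 had -2.13 and 1.16 and the Mediator gene Med13l 1.21 and -1.37 in the authors' deposited table.

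**Figure D2:**
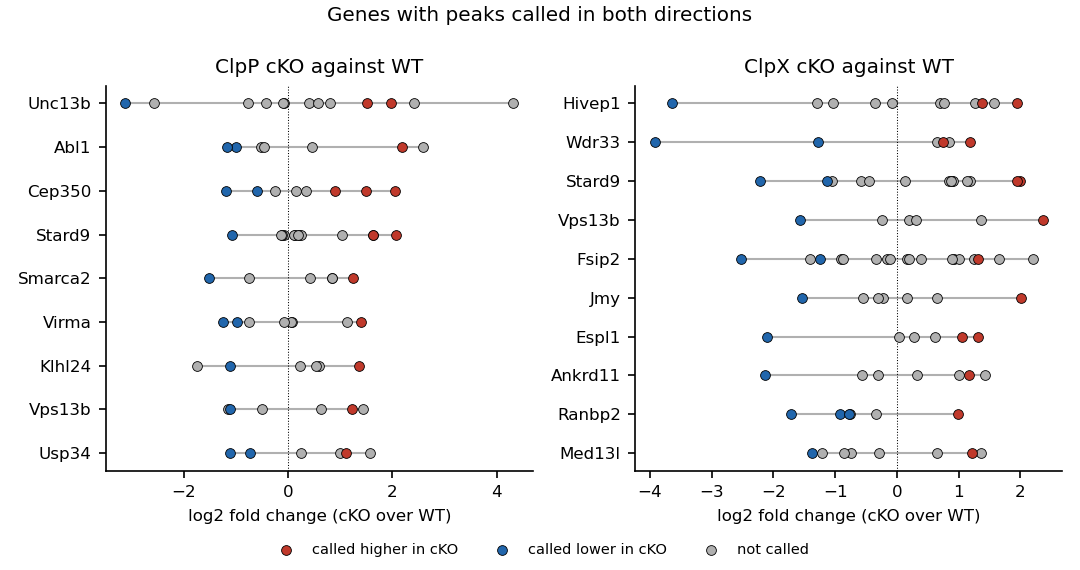
Log2 fold change (x axis, knockout over WT) of every peak of genes from the 10 with the largest opposed calls in each comparison (chosen by the smaller of the 2 opposed changes; 9 are drawn for ClpP cKO), 1 gene per row, with red for peaks called higher, blue for peaks called lower and grey for peaks not called. Unc13b at the top left spans -3.12 to 4.32, and Hivep1 at the top right has a called peak at -3.64 and another at 1.95.

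The genes with most peaks did not share one pattern. Fsip2, which encodes a protein of the fibrous sheath of the sperm tail, had 20 peaks in the ClpP table, and its values lay mostly above 0. Of these 10 were called higher in ClpP cKO and 0 lower, with called values from 0.84 to 3.24 and a median over all 20 of 1.11 in the authors' deposited table. The peaks called with the smallest adjusted p were at 1.46 (1.05e-08, chr2:82979239-82981069) and 1.42 (1.86e-06, chr2:82973061-82976239) in the authors' deposited table. In ClpX cKO the 18 Fsip2 peaks had a median of 0.18, with 1 called higher at 1.32 and 2 called lower at -1.24 and -2.52 in the authors' deposited table. The clone-named gene 4932415D10Rik had 7 of 12 rows called higher in ClpP cKO (10 separate sites, median 0.76) and 0 of 15 called in ClpX cKO (median -0.29), from the authors' deposited tables.

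Ahnak encodes a giant scaffold protein from one very long exon, and its peaks were dense, 16 in 16490 bases in the ClpP table and 20 in 16550 bases in the ClpX table. Their log2 fold changes ran from -2.50 to 1.58 in ClpP cKO and from -3.47 to 2.99 in ClpX cKO in the authors' deposited tables, with 1 peak called lower in each and none higher. Stard9, a mitotic kinesin, had 2 called higher and 1 lower of 13 in ClpP cKO, and 2 and 2 of 14 in ClpX cKO. Its sites at chr2:120700139-120701637 in the ClpP table and chr2:120700229-120701577 in the ClpX table overlap, and they were called lower, at -1.07 and -2.21 in the authors' deposited tables. Likewise its peaks near chr2:120703854-120704304 and chr2:120703944-120704393 overlap and were called higher, at 2.08 and 1.99 in the authors' deposited tables. Macf1, a linker of microtubules and actin, Dst, its relative, and Kmt2a, a histone methyltransferase, had 16, 12 and 11 peaks and no call (Macf1 in the ClpX table, the others in the ClpP table), with ranges of 3.92, 3.52 and 4.20. In the ClpX table Rai1 and Gm884 had 1 of 12 and 2 of 11 peaks called higher.

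**Figure D3:**
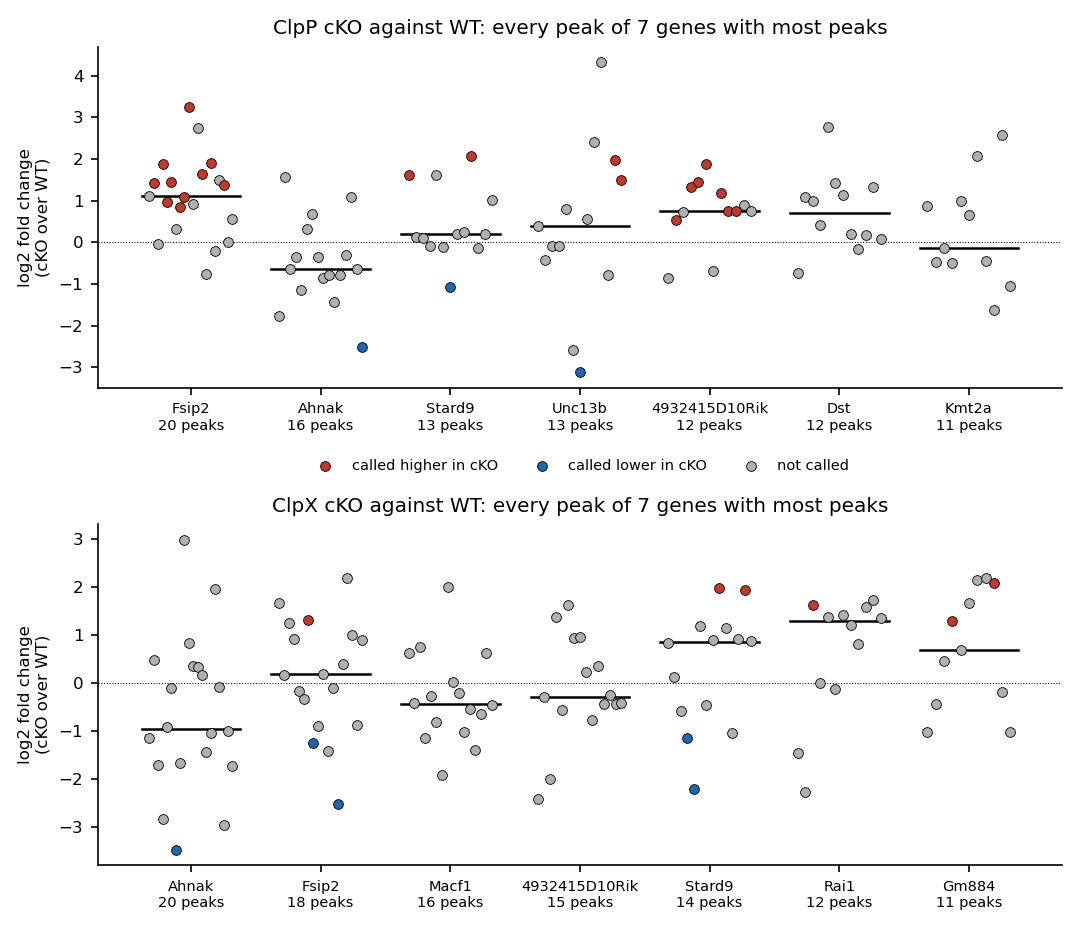
Log2 fold change (y axis, knockout over WT) of every peak of 7 of the 8 genes with most peaks in the ClpP comparison (top) and in the ClpX comparison (bottom), from 5′ to 3′ within each gene, with red for called higher, blue for called lower, grey for not called and a bar at the gene's median. The Fsip2 peaks in the top panel centre on 1.11 with 10 called higher, and the Ahnak peaks lie mostly below 0 in both panels.

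In the ClpX table Plec had the most uniform calls, and its calls in the ClpP table ran differently. It encodes plectin, which links intermediate filaments to other parts of the cytoskeleton. In ClpX cKO all 8 of its peaks were called higher, at 1.89, 2.68, 0.672, 0.993, 1.07, 1.13, 1.41 and 1.58 from 5′ to 3′ in the authors' deposited table. In ClpP cKO the most 5′ of 7 peaks was called higher at 1.04 (adjusted p 0.0191) and 3 others were called lower, at -0.547, -0.574 and -0.492 in the authors' deposited table. The peaks at the 5′ end overlap in the tables (chr15:76189141-76190177 and chr15:76189081-76190147), and this site was called higher in both. No other gene of the ClpX table had all or all but 1 of its peaks called in one direction, and for ClpP the clone-named gene 1700017B05Rik, named here after its values were seen, had 6 of 6 called lower, between -0.453 and -2.05 in the authors' deposited table.

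**Figure D4:**
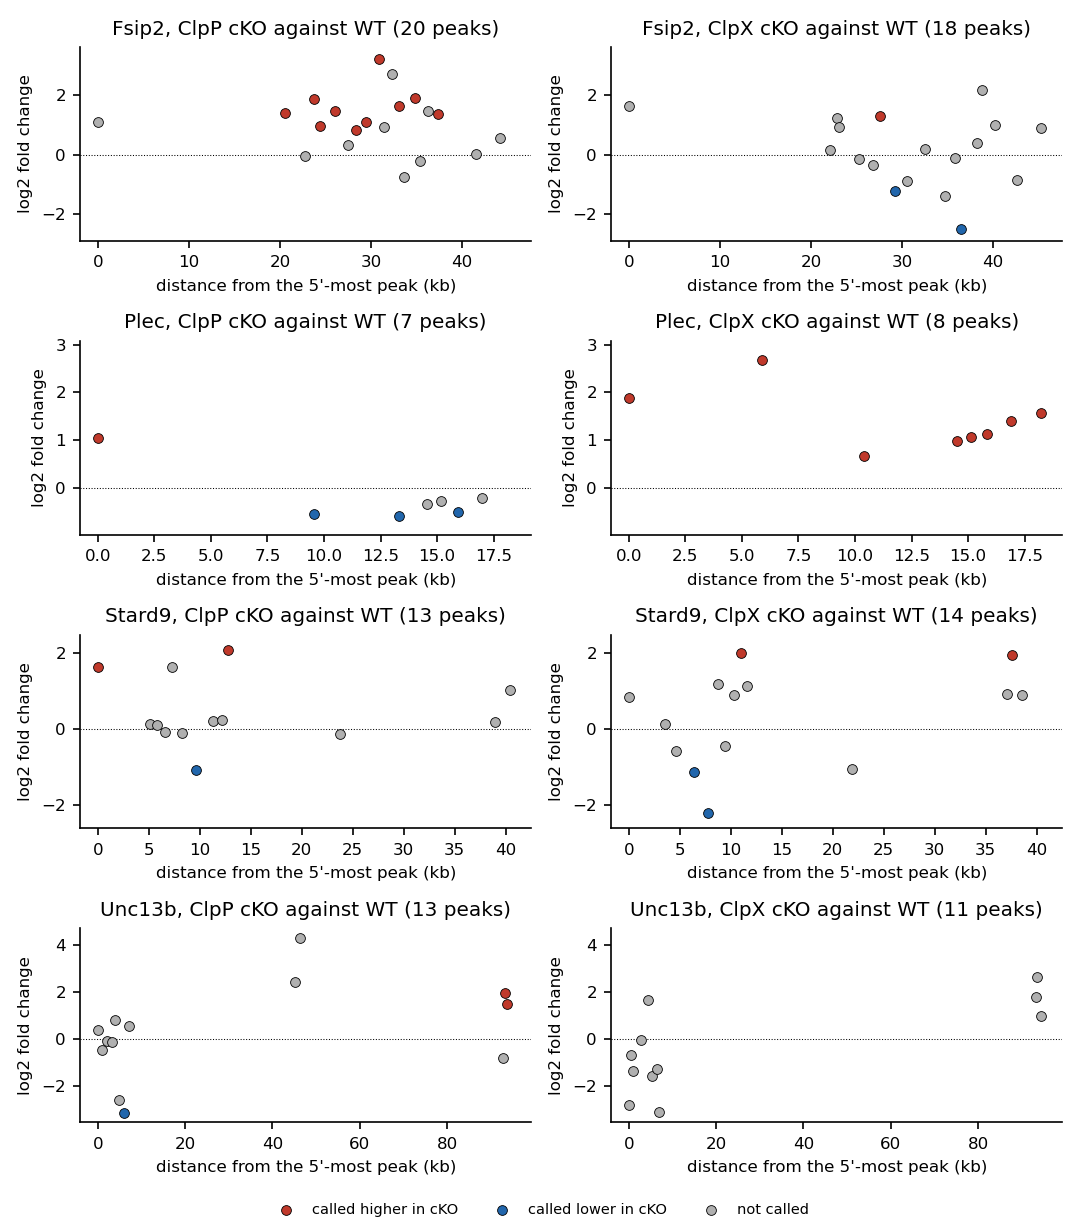
Log2 fold change (y axis) against distance of the peak centre from the gene's most 5′ peak in kb (x axis) for Fsip2, Plec, Stard9 and Unc13b, with ClpP cKO against WT at left and ClpX cKO against WT at right, and red for called higher, blue for called lower and grey for not called. Plec has 8 red points between 0.672 and 2.68 at right, and 1 red and 3 blue points at left.

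Uniform genes were few. All peaks lay above 0 in 18 ClpP genes and 23 ClpX genes and below 0 in 6 and 2. These counts are of rows as listed, and rows that repeat a site make a gene look uniform more easily. In the ClpX table Taf7l2, with 2 separate sites, is among those above 0, and Neat1, with 3, among those below. Counts with shared rows counted once are not given. Sycp2, a component of the axial elements of the synaptonemal complex, had every peak above 0 in ClpP cKO. Its 6 peaks were at 1.99, 1.38, 2.54, 0.535, 1.58 and 1.22 in the authors' deposited table, and 4 were called higher, with the smallest adjusted p 6.31e-16 at 2.54 (chr2:178369374-178374953). Smc3 of cohesin and Smc4 of condensin, named after their values were seen, had 4 of 7 and 4 of 6 peaks called higher in ClpP cKO, with all their peaks above 0. Among the narrowest ranges in the ClpP table were those of the nucleolar gene Nol8 (0.67), the scaffold gene Akap13 (0.76), the centriolar gene Cep164 (0.84) and the dynein gene Dnah14 (0.86). Dnah14 had 2 peaks called higher, at 0.97 and 0.709 in the authors' deposited table, and the other 3 genes had none called. In the ClpX table Rev3l, the catalytic subunit of DNA polymerase zeta, had a range of 0.55, Fbxl18 0.93 and Bcorl1, a corepressor, 0.94. Aldoart1, a testis retrogene of aldolase, had 0.86, but its 6 rows are 3 sites each listed 2 times.

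The widest ranges had some extremes on peaks that were not called. After Unc13b (7.44) came Myo18a (6.62), Chd9 (5.54), Maml3 (5.53), Lrrc14 (5.51) and Synm (5.42) in the ClpP table, and of the peaks at their extremes calls were made only for Lrrc14 at -3.66 (adjusted p 0.0339) and Synm at -2.98 in the authors' deposited table. Among the ClpX genes with the widest ranges were Gse1 (6.66), Ahnak (6.46), Zfhx2 (6.35), Zfp783 (6.18) and Map1b (6.05). Gse1 had a called peak of 5.17 (adjusted p 0.00977) and Map1b, a microtubule-associated protein, one of 4.91 (adjusted p 0.0182) in the authors' deposited table, while the 5.70 of Zfhx2 was not called in that table. Called extremes also lay at -3.47 in Ahnak and 3.44 in Zfp783 in the authors' deposited table.

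Fold enrichment also differed widely among the peaks of a gene. The ratio of the highest to the lowest fold enrichment had a median of 6.67 over the ClpP genes (95% interval 6.07 to 7.36) and 7.08 over the ClpX genes (6.36 to 7.93), with shared rows counted once 7.05 and 7.29, and it exceeded 10 in 56 and 60 genes. The highest peak of a gene had a median fold enrichment of 21.3 (ClpP) and 23.5 (ClpX), and the lowest 2.98 and 3.18. Kmt2c, a histone H3 lysine methyltransferase, had the widest ratio in the ClpP table, 50, from a peak at 118 to one at 2.36 in the authors' deposited table. Brca2, which acts in homologous recombination, followed at 36.4, with 99.5 at its second peak and 4.18 or less at the 4 peaks further along in the authors' deposited table. Ahnak had 31.9, Ndor1 24.0, Ubn2 23.4 and Cep63 23.3. Ndor1 rests on 4 separate sites. In the ClpX table Unc13b led with 54.7, from 127 to 2.32 in the authors' deposited table, followed by Zfp142 with 40.7, Macf1 with 33.9, Igsf3 with 29.4, Trip11 with 28.9 and Stard9 with 26.8.

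In these 12 genes the most enriched peak was called in Cep63, Trip11 and Stard9, lower each time, and in no other. The Kmt2c peak at 118 had a log2 fold change of 0.494 in ClpP cKO, the Brca2 peak at 99.5 had 0.397 and the Unc13b peak at 127 had -3.10 in ClpX cKO, and none was called in the authors' deposited tables. The Trip11 peak at 86.3 was at -1.77 and the Stard9 peak at 73.9 at -2.21 in ClpX cKO, and the Cep63 peak at 34.5 at -0.497 in ClpP cKO, in the authors' deposited tables. Clone-named genes aside, the most even enrichment was found in Huwe1 (ratio 1.48), Crybg1 (1.5) and Zfhx4 (1.73) in the ClpP table and Dchs1 (1.28), Kctd11 (1.70, 3 sites each listed 2 times) and Casz1 (1.8) in the ClpX table. Huwe1, a very large ubiquitin ligase, still had 2 of 6 peaks called higher in ClpP cKO, at 1.23 and 1.06 in the authors' deposited table.

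**Figure D5:**
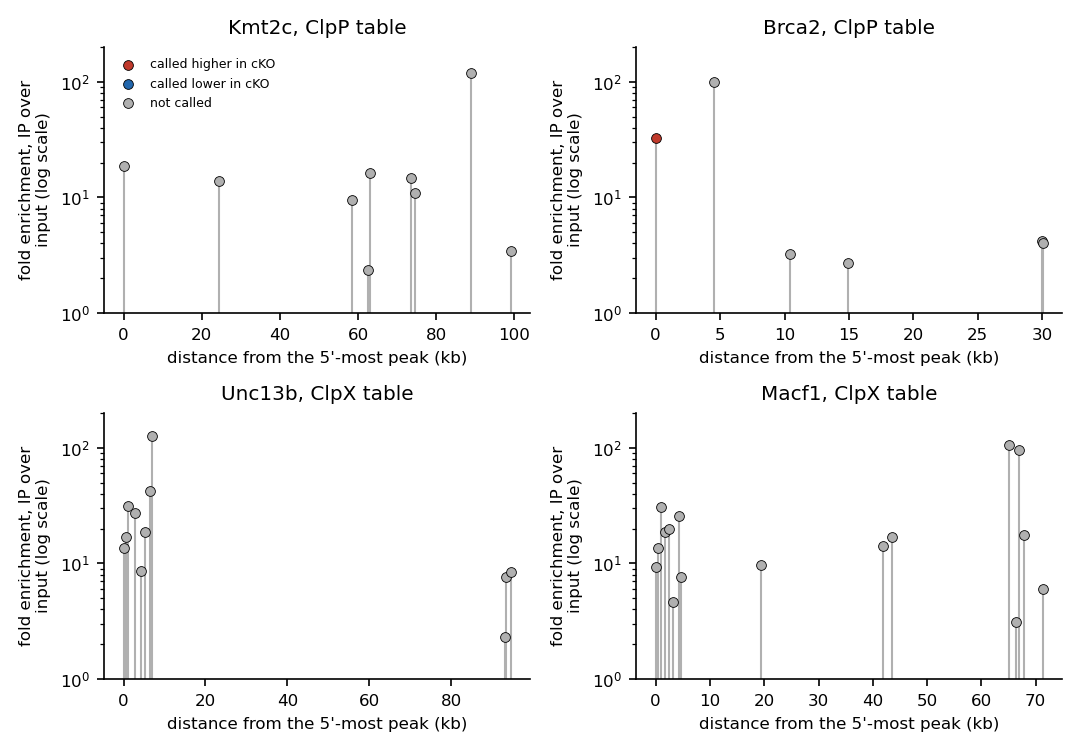
Fold enrichment of IP over input (y axis, log scale) against distance from the gene's most 5′ peak in kb (x axis) for Kmt2c and Brca2 in the ClpP table and Unc13b and Macf1 in the ClpX table, 1 stem per peak, coloured as called higher, lower or not. The highest stems reach 118 in Kmt2c, 99.5 in Brca2, 127 in Unc13b and 106 in Macf1, and the lowest 2.36, 2.73, 2.32 and 3.13.

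Position along the gene went with smaller differences. The most enriched peak was the most 5′ one in 36 ClpP genes, an inner one in 167 and the most 3′ one in 38, and in 34, 161 and 36 ClpX genes, so 30.7% and 30.3% of genes had it at an end, while end peaks were 28.8% and 28.3% of all peaks. The most changed peak was the most 5′ one in 41 ClpP genes, an inner one in 151 and the most 3′ one in 49. In the ClpX table these numbers were 50, 150 and 31. In ClpP cKO 12.9% of the most 5′ peaks were called lower (exact binomial 95% interval 8.91 to 17.8%), 8.66% of inner peaks (7.12 to 10.4%) and 7.05% of the most 3′ ones (4.16 to 11.1%). Their median log2 fold changes were -0.129, 0.152 and 0.178. In ClpX cKO 14.7% of the most 5′ peaks were called higher, 13.3% of inner peaks and 8.23% of the most 3′ ones. The intervals overlap, and no test was made. Neighbouring peaks were about as different as distant ones: the median absolute difference of log2 fold change was 0.860 between neighbours and 0.949 between peaks at least 4 places apart in the ClpP table, and 1.04 and 1.2 in the ClpX table.

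Members of the gene lists are given with the tally of their whole list, to be read against 6.74% of all peaks called higher and 12.8% lower in ClpP cKO, and 15.1% and 5% in ClpX cKO. Of 41 listed chromatin and transcription genes, 13 had 6 or more peaks in the ClpP table and 17 in the ClpX table. In ClpP cKO 7 of their 95 peaks rose and 7 fell, and the median log2 fold change was 0.28 against -0.03 over all peaks. The 41 genes together had 13 of 205 peaks higher and 23 lower. In ClpX cKO 24 of 117 rose and 3 fell, and the median was 0.45 against 0.24 over all peaks. The 41 together had 38 of 209 higher and 9 lower. Chd4, the ATPase of the NuRD complex, had 4 of 6 peaks called higher in ClpX cKO, at 2.02, 1.92, 1.29 and 1.05, and Baz2a, of the nucleolar remodelling complex, 4 of 6, at 1.71, 1.90, 2.64 and 0.863, in the authors' deposited table. Arid1a, a BAF subunit, had 3 of 6, at 2.88, 2.45 and 1.53, in the authors' deposited table. The coactivator Ep300 had 1 called peak, which rose by 3.57 on the log2 scale in the authors' deposited table. In ClpP cKO, Setd5 combined 2.94 and -0.814, Kmt2d 0.898 with -1.07 and -0.99, and Chd8 had 2 called lower at -0.579 and -0.758 in the authors' deposited table. Ash1l, a histone H3 lysine 36 methyltransferase, had peaks called higher at 0.62 and 3.61 in ClpP cKO, and one higher at 0.515 and one lower at -0.805 in ClpX cKO, in the authors' deposited tables.

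Sperm structure genes with 6 or more peaks were Fsip2 and Odf2 in the ClpP table, with 12 of 27 peaks called higher in ClpP cKO and 1 lower, a median of 0.98. All 19 listed genes of this group with a peak had 20 of 64 called higher and 8 lower. Odf2, of the outer dense fibres, had called values of 1.17, -0.566 and 0.778 in the authors' deposited table. Of the meiosis and germ line genes, Sycp2, Brca2 and Fancm qualified, with 5 of 18 peaks called higher in ClpP cKO and 1 lower, and all 26 listed genes with a peak had 12 of 62 higher and 9 lower. The fall was in Fancm, a helicase of the Fanconi anaemia pathway, at -1.56 in the authors' deposited table. In ClpX cKO Brca2 alone qualified, with 2 rows called higher at 1.73 and 1.74 in the authors' deposited table, which list the same site. All 24 listed genes with a peak had 18 of 61 higher and 3 lower there.

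The giant cytoskeletal and motor genes gave 9 members in the ClpP table, with 5 of 67 peaks called higher in ClpP cKO and 1 lower and a median of 0.74. All 22 listed genes with a peak had 16 of 109 higher and 5 lower. Hydin, of the central apparatus of motile cilia, carried 3 of the 5, at 2, 1.03 and 2.57 in the authors' deposited table, and Dnah7b, an axonemal dynein, had 0.834 and 1.42 with -0.699 at another peak in the authors' deposited table. Akap9, Cep290, Dst, Macf1, Pcnt, Syne2 and Ttn had no call. For ClpX, 5 such genes had 0 of 45 peaks called higher and 1 lower, in Dst at -0.686 in the authors' deposited table, with a median of -0.20. All 20 listed genes with a peak had 11 of 93 higher and 4 lower in ClpX cKO. All peaks of that table also leaned higher (15.1% higher and 5% lower), and the members' balance rests on 1 call. Spag17 was the member found only there.

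Of the large ubiquitin ligases and deubiquitinases, Huwe1, Mycbp2, Rnf213 and Usp34 had 5 of 25 peaks called higher in ClpP cKO and 4 lower. All 14 listed genes had 6 of 50 higher and 11 lower in ClpP cKO, where all peaks of the table also leaned lower (6.74% higher and 12.8% lower). In ClpX cKO the 14 genes had 5 of 44 higher and 8 lower, against 15.1% and 5% of all peaks. Mycbp2 combined 1.56 and 4.15 with -0.757 in the authors' deposited table. Rnf213 had its one call at -2.20 in ClpP cKO, and -1.74 and -1.92 in ClpX cKO, in the authors' deposited tables. The m6A writer complex itself contributed Virma, its scaffold, and Zc3h13, its nuclear anchor, in the ClpP table, with 1 of 14 peaks called higher and 2 lower. All 19 listed m6A genes with a peak had 3 of 51 higher and 13 lower. The calls were all in Virma, lower at -0.983 (adjusted p 1.58e-15, fold enrichment 19.2) and -1.24 (adjusted p 1.32e-06) and higher at 1.39 (adjusted p 0.0437) in the authors' deposited table. No listed m6A gene reached 6 peaks in the ClpX table, where 18 with a peak had 9 of 46 higher and 8 lower.

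Of the mTOR and growth signalling genes, Foxo3 and Irs2 qualified in the ClpP table, with 0 of 13 peaks called higher in ClpP cKO and 2 lower, a median of -0.42. All 20 listed genes with a peak had 0 of 57 higher and 7 lower. Their falls were at the most enriched peak of each gene, at -0.922 in Foxo3 and -1.50 in Irs2 in the authors' deposited table. Irs2, an adaptor of the insulin receptor, had 0 of 6 called in ClpX cKO, where 21 listed genes with a peak had 6 of 52 higher and 4 lower. No gene of the mitochondria list reached 6 peaks in either table. Neat1, the RNA scaffold of paraspeckles, was the one nuclear long noncoding RNA, with 6 rows (3 sites) between -2.10 and -0.492 in ClpX cKO and none called in the authors' deposited table. Of the cell type markers only Myh11, a smooth muscle myosin, had 6 peaks, in the ClpX table, with none called.

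At the edge of the selection, the 244 genes with 5 peaks in the ClpP table had a median log2 fold change of 0.036 and 20.2% of peaks called, and the 135 genes with exactly 6 had 0.10 and 17.7%. In the ClpX table the 238 genes with 5 peaks had 0.34 and 21.0%, and the 133 with exactly 6 had 0.38 and 18.4%.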

How the data were processed

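The authors deposited 2 tables of their own comparisons, of each knockout (ClpP cKO, ClpX cKO) with WT, from 4 libraries each. Per the file headers, each row gives a peak with its p-value, scores that are log10 of p-values and adjusted p-values, the fold enrichment (a linear ratio), and the log2 fold change between genotypes. The sources used here do not give the authors' depth normalisation, aligner or peak caller. The build is GRCm38, per the submitters' processing notes. No table of per-library values was used, so depth is unknown and intervals cover only the number of peaks or genes.

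Genes were taken by symbol, and those with 6 or more rows kept. Calls use the authors' adjusted p under 0.05. An error was read back as the absolute log2 fold change over the normal deviate of its p-value. Variance between genes is a 1-way random-effects estimate, and that estimate and the calling anew were tested on simulated data. Python 3.11.15, pandas 2.3.3, numpy 2.4.6 and scipy 1.17.1 were used. Start windows matched 189 of 241 ClpP genes and 175 of 231 ClpX genes, by symbol. Peak sequences and exon positions were not analysed here. Some genes that the naming rules or lists take in are not reported here, and counts over groups include them.

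The genes and the lists were chosen with earlier results of these data known. Genes named were, per table, the 8 with most peaks, the 6 widest and 4 narrowest in log2 fold change, the 6 widest and 3 narrowest in fold enrichment, up to 10 with opposed calls, those with all or all but 1 peak called one way, and members of 9 gene lists and 5 marker lists. Predicted and clone names were counted but passed over in naming, except among the genes with most peaks. Others are said to be named after their values were seen, which also holds for Fbxl12, Tsc22d1, Fat1 and Srrm2. Alternatives tried were other minimums of peaks, filters on enrichment, overlap and names, stricter calls, a median shift, and, added after seeing the data, counting shared rows once, leaving out the second run of rows and keeping only well supported peaks.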

Additional observations from a re-analysis of the deposited data

How the results depend on the processing

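No paired analysis was possible because each group has 1 library and no value comes from a test. Of 174 alternative values, 125 stayed within the main value's 95% interval, or within 1.5 times it where it has none, and 49 did not. The balance of calls turned towards lower in ClpX cKO after the table median was subtracted. In ClpP cKO, where fewer peaks were called higher than lower, it turned towards higher with that step (9.51% and 8.79%), with 8 or more peaks (9.35% and 6.24%) and with a change of at least 1. Over all ClpP peaks the balance stayed towards lower after the median was subtracted (7.98% and 12.0%). Counting rows that share bases once, leaving out the second run of rows, removing peaks that share bases with another and removing predicted names moved no value past these limits. Causes of the moves were not tested, but some act by construction. Stricter calls lower the shares called, and filters on peaks lower the counts of genes. Another minimum of peaks changes the number of peaks per gene. The range, the ratio of extremes, the room for opposed calls and the share of peaks at an end all depend on that number.
With 8 or more peaks required (47 ClpP and 56 ClpX genes), 6.24% of ClpP peaks were called lower, and 8.66% and 4.79% of ClpX peaks higher and lower. The median range of log2 fold change was 3.15 and 3.59, the ratio of enrichment 9.40 and 9.91, the share of ClpP genes with opposed calls 21.3% and the variance between ClpX genes 3.66%. The most enriched peak was at an end in 21.3% and 17.9% of genes, and the most changed one in 19.1% and 23.2%, in place of 37.3% and 35.1%. With 5 or more, the ratio was 5.96 and 6.10, and the most enriched peak was at an end in 37.3% of ClpP genes. Removing peaks with a fold enrichment under 2 left 10.8% of ClpX peaks called higher.
At an adjusted p under 0.01, 5.20% and 7.30% of ClpP peaks were called higher and lower (4.06% and 9.66% of all peaks) and 9.36% and 1.77% of ClpX peaks (11.3% and 2.78% of all), with opposed calls in 9.96% and 3.46% of genes. With a change of at least 1 on the log2 scale these were 5.86% and 3.71% (4.50% and 4.65% of all), 9.54% and 2.51% (10.2% and 3.44% of all), and 4.98% and 3.90% of genes. Subtracting the table median and calling anew gave 9.30% of ClpX peaks higher and 9.91% lower (11.1% and 13.6% of all), with 17.3% of genes opposed. The standard deviation, another measure than the range, was 0.95 and 1.06.
Keeping only peaks with a peak p of 1e-10 or lower left 37 ClpP genes with 256 peaks and 32 ClpX genes with 205. In ClpP cKO 14.8% of these peaks rose and 19.9% fell, and in ClpX cKO 19.0% and 7.80%. Calls moved with support in other genes too. Of their ClpP peaks, 49.5% were called lower at a peak p of 1e-100 or lower, and 1.15% over 1e-05. The shares among the kept peaks are therefore not to be read against those of all peaks. The share over all peaks of like support was not worked out for the kept peaks. The median range was 1.62 and 1.75, the ratio of enrichment 5.21 and 4.90, the variance between ClpP genes 18.4%, and 40.5% of ClpP genes had opposed calls, as many as had their most enriched peak at an end.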

Other observations

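Some log2 fold changes recurred as the same figure in many peaks. Values of 0, 1, 1.58 or 2 in absolute size, to 2 decimals, made up 9.77% of the 430 ClpP peaks of these genes with a peak p over 1e-05, against 1.27% of the 867 with a peak p of 1e-10 or lower. In the ClpX table the shares were 7.07% of 495 and 1.11% of 723. In Crybg1 fold enrichments repeat too, and the authors' deposited ClpP table gives 13.8 and 10.7 for 2 peaks each.

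Zc3h11a, named after its values were seen, listed each of its sites again under another Ensembl gene identifier. Its 6 rows held 4 called lower in ClpP cKO, from -0.667 to -1.04, and 4 called lower in ClpX cKO, from -1.12 to -1.75, in the authors' deposited tables. The rows at the 5′ end, at 0.198 and 0.203 in ClpP cKO and 0.066 and 0.165 in ClpX cKO, were not called in the authors' deposited tables.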
